A study of Mus musculus with 74 samples.

Results

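Far intergenic H3K27ac peaks are stretches of liver chromatin that carry acetylated lysine 27 of histone H3 and lie away from any gene start. They were taken from 1 table of H3K27ac peaks in livers of the Ncor and Smrt mouse lines, as the peaks that its annotation calls intergenic, that lie more than 10000 bp from the nearest transcription start site (TSS) on either side, and that span less than 8000 bp from start to end. Of 68818 peaks, 17673 met these conditions. The rule used position and width and no comparison between groups, but it is not independent of the H3K27ac level: the authors called the peaks from these libraries (each was called in at least 1 of the 12), and the width of a peak follows the extent of its signal. At the distance limit, the peak just inside lay 10001 bp from the TSS of BC005537 and had a log2 fold change of -0.0 in Ncor and 0.07 in Smrt LKO livers, and the peak just outside lay 9997 bp from Gucy2d and had 0.14 and -0.23. At the width limit, the peak just inside near Lrrc8d had 0.01 and -0.01 and the peak just outside near Usp12 had -0.04 and 0.08. The width condition left out 454 peaks that met the other conditions.

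The H3K27ac libraries were 3 Ncor WT, 3 Ncor LKO, 3 Smrt WT and 3 Smrt LKO livers, where LKO stands for liver-specific knockout and each line had WT livers of its own. All mice are labelled as C57BL/6 of 8 to 12 weeks and were on chow. Livers of the Gps2 line, Gps2 WT (Gps2 flox/flox) and Gps2 LKO (Gps2 flox/flox with Cre driven by the albumin promoter, which is active in hepatocytes), gave 2 H3K27ac libraries and 4 RNA-seq libraries per group. GPS2 and PPARα ChIP-seq of 3 Ncor WT and 3 Ncor LKO livers, and peak lists of GPS2, NCOR and PPARα from WT livers of the Gps2, Pparα and Ncor lines, were read at the same regions. The names of the Gps2 H3K27ac libraries call the mice fed, and the names of the other libraries give no feeding state. Material from several immunoprecipitations was pooled into each ChIP-seq library, per the study's methods. The study describes its replicates as biological, and the labels do not tie a library to single mice. The files used here hold no RNA of the Ncor and Smrt lines, so the deletions themselves were not checked.

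The 12 H3K27ac libraries held 34.3 M to 46.1 M tags, of which 73.9 to 80.9% lay in peaks and 8.0 to 8.9% in the far intergenic peaks. The median far intergenic peak held 52 to 72 tags per library. Of these peaks, 7559 had a mean under 50 tags over the Ncor libraries, and at this depth small differences there were not detectable. At peaks within 1000 bp of the TSS, Xist, which female cells express from the inactive X chromosome, had 2.93 to 4.92 tags per 10000000 tags of the library (normalised tags) in Ncor and 249 to 289 in Smrt livers, while 3 Y-linked gene starts had 293 to 360 in Ncor and 0 in Smrt livers. The labels name no sex, and the study's methods describe all mice as male, which the Xist and Y-linked signal of the Smrt livers goes against. Line and sex therefore cannot be told apart in any comparison between the Ncor and Smrt lines. The ranges given hold for WT and LKO livers of each line together. Sex-linked signal was not read in the Gps2 livers, so their sex was not checked.

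H3K27 acetylation marks active enhancers and promoters, and enhancers can lie far from the genes they act on. NCOR and SMRT are large related corepressor proteins that bind nuclear receptors and hold the deacetylase HDAC3, which removes acetyl groups from histones, and GPS2 and TBL1XR1 are subunits of the same complex. PPARα is a nuclear receptor that turns on genes of fatty acid oxidation in the fasting liver.

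The factor-bound parts of 6 of the regions named further on are shown as mm9 sequence of the plus strand (200 bases where most WT factor peak lists had a peak). They are a selection and not the regions whose H3K27ac changed most. In Ncor LKO livers the Ppargc1a region shown had a log2 fold change of -1.93. Regions near Ccny (-2.25) and 4930448F12Rik (-1.98) and a second region near Tab2 (2.77) changed more and are not shown. The window of this second Tab2 region held an HNF4 match, and that of 4930448F12Rik an HNF6 match. Capitals mark any match to the searched motifs named further on, or a single AGGTCA unit in either direction. The Pdk4 window was chosen after its values were seen. The regions are chr9:104264105-104264304 (Acpp), chr10:7807067-7807266 (Tab2), chr6:5421060-5421259 (Pdk4), chr8:29385021-29385220 (Gm8096), chr14:88823212-88823411 (Pcdh20) and chr5:51536152-51536351 (Ppargc1a).
Acpp: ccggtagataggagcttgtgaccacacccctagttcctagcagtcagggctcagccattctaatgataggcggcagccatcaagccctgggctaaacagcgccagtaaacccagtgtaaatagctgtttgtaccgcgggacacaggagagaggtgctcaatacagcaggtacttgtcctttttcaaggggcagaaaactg
Tab2: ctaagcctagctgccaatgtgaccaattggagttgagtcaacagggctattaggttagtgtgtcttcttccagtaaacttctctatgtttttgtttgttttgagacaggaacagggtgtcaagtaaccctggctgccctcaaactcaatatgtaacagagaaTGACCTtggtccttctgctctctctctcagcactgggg
Pdk4: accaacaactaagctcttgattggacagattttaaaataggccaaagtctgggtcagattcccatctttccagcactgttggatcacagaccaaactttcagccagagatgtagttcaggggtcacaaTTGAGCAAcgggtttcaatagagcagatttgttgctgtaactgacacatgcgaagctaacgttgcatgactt
Gm8096: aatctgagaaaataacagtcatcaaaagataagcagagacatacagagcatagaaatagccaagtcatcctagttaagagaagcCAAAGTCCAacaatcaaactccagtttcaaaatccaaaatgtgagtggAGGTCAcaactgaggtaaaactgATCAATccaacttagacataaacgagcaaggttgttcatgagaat
Pcdh20: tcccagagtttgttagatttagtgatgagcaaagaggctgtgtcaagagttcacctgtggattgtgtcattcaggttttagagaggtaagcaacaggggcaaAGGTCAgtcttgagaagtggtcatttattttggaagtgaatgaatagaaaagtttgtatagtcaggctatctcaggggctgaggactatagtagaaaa
Ppargc1a: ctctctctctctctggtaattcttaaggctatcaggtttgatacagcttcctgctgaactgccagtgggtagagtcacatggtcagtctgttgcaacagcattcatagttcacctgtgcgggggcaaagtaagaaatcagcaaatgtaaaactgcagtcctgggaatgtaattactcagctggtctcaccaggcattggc
The Acpp and Ppargc1a windows hold no match to any searched motif. The Tab2 and Pcdh20 windows hold a single AGGTCA unit, the Gm8096 window holds an HNF4 match, an HNF6 match and an AGGTCA unit, and the Pdk4 window holds a C/EBP match. No window holds a DR1 match, the paired site of PPARα with RXR (2 copies of AGGTCA with 1 base between, at most 1 mismatch in 12 bases).

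The far intergenic peaks had a median width of 1170 bp and a median distance of 42455 bp to the nearest TSS, and 7843 of them (44.4%) lay beyond 50000 bp. In the WT livers of both lines the median peak held 15.5 normalised tags, against 21.5 for all peaks of the table and 138 for promoter peaks. H3K27ac was called in all 12 libraries at 31.8% of the far intergenic peaks and in 1 library at 17.7%. An H3K4me3 peak, the mark of gene starts, overlapped 17.7% of them, against 29.6% of all peaks and 91.2% of promoter peaks. In GENCODE models of the same build, 10.9% overlapped some gene and 6.78% a protein-coding gene, so the intergenic annotation in the table did not cover every transcript model.

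The WT level was highest near 1700029F12Rik, Arg1 and Slc22a23. At chr10:24665639-24673015, 22.1 kb from Arg1, the arginase of the urea cycle, Ncor WT livers had 1160, 1100 and 1200 normalised tags and Ncor LKO livers 986, 1020 and 932. Smrt WT livers had 1120, 995 and 991 and Smrt LKO livers 1130, 1020 and 1030. The Ncor groups did not overlap at this region, but the log2 fold change of -0.23 ± 0.09 (SE) did not pass the adjustment (adjusted p = 0.21). Near Slc22a23 both lines overlapped between genotypes, with log2 fold changes of -0.09 and 0.03.

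WT peak lists of the 3 factors covered most of the far intergenic peaks. A factor was counted as present where at least 2 WT libraries had a peak over the region, of 7 for GPS2, 6 for NCOR and 8 for PPARα. NCOR peaks overlapped 9023 of the far intergenic peaks (51.1%), PPARα peaks 7522 (42.6%) and GPS2 peaks 6014 (34.0%), and 9587 (54.2%) had at least 1 of them. All peaks of the table had 53.2, 46.3 and 37.6%, and promoter peaks 78.1, 76.9 and 67.8%. The factors stood mostly together, since 5605 far intergenic peaks had all 3, 1721 had NCOR alone, 471 PPARα alone and 28 GPS2 alone. Single lists reached very different numbers of the far intergenic peaks, from 9.79 to 36.8% for GPS2, 28.3 to 50.1% for NCOR and 9.18 to 42.2% for PPARα.

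Factor-bound regions were wider and more acetylated than the others. Regions with all 3 factors had a median width of 2200 bp, 58.7 normalised tags in WT livers and 25 normalised tags per kb, against 723 bp, 7.52 and 10.2 for regions with no factor peak. H3K27ac was called in all 12 libraries at 57.5% of the former and 12.8% of the latter. In the 300 bases at the centre, DR1 was found in 1.53% of regions with PPARα, 0.652% of regions without and 0.988% of all peaks. ATCAAT, bound by HNF6, was found in 13.2 and 8.25% of regions with and without PPARα, CAAAGTCCA (HNF4) in 1.43 and 0.503%, TTGCNNAA (C/EBP) in 17.1 and 12.9% and TGTTTAC (FOXA) in 6.37 and 5.07%. The shares of all peaks were 8.76, 0.729, 12.5 and 4.79%. DR4 (2 copies of AGGTCA with 4 bases between), the E-box CACGTG and the STAT5 motif TTCNNNGAA were found in 0.533, 4.3 and 10.8% of regions with PPARα and in 0.474, 3.82 and 10.3% without, and in 0.361, 4.59 and 9.31% of all peaks. Both strands were searched. Matches of different motifs may overlap.

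In Ncor LKO livers, H3K27ac rose at 512 and fell at 177 of the far intergenic peaks (edgeR quasi-likelihood test over all peaks, adjusted p below 0.05). These are 2.9 and 1.0% of the 17673, where 2.32% of all peaks of the table were called higher and 0.801% lower. Peaks in introns at the same distance had 2.18 and 0.715%, intergenic peaks nearer to a TSS 2.77 and 1.05%, and promoter peaks 0.412 and 0.433%. The rises ranged from 0.42 to 4.26 on the log2 scale with a median of 1.17, and 323 of them were at least 2-fold. The falls ranged from -2.72 to -0.43 with a median of -1.13. At every one of the 689 called regions the 3 LKO libraries lay outside the WT range, which 10.6 and 9.04% of all peaks did upwards and downwards. The regions were called from these same libraries, so this separation is a description and adds nothing to the calls. The counts depended on single libraries: they were 98 and 37 when Ncor WT library 2 was left out, 156 and 51 for Ncor WT library 3, 236 and 94 for Ncor WT library 1 and 297 and 99 for Ncor LKO library 3. Near the TSS of hepatocyte marker genes (2 of 9 with a peak there) the summed signal was 1400 to 1530 normalised tags in Ncor WT and 1230 to 1340 in Ncor LKO livers, and for bile duct markers (5 of 5) it was 308 to 311 and 337 to 461. The sums of Kupffer cell (2 of 10 genes), endothelial (3 of 6) and stellate cell (5 of 6) markers overlapped between the groups, no list was at 0, and the part of these differences in the calls was not tested. In whole liver, another share of a cell type and another level per cell cannot be told apart.

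The calls were distributed unevenly over the factor classes. With all 3 factors, 360 of 5605 regions (6.42%) rose and 124 (2.21%) fell, and with NCOR and PPARα 49 of 1381 (3.55%) rose and 24 (1.74%) fell. With no factor peak, 68 of 8086 (0.841%) rose and 20 (0.247%) fell. PPARα alone gave 13 and 3 calls in 471 regions, NCOR alone 21 and 5 in 1721, GPS2 with NCOR 1 and 0 in 316, GPS2 with PPARα 0 and 1 in 65, and GPS2 alone 0 and 0 in 28 (at an unadjusted p below 0.05, 1 and 0). All peaks of the table with all 3 factors had 4.8 and 1.49%, and those with none 0.607 and 0.237%. Depth bears on such shares, because a change is easier to call where there are more tags. Among far intergenic peaks with a mean of at least 197 tags over the Ncor libraries, 7.04% with 3 factors rose and 2.22% fell, and with no factor 0.898% rose and 0% fell (334 regions). Most regions with all 3 factors were not called. Their median log2 fold change was 0.07 with quartiles of -0.17 and 0.38, beside -0.02 with no factor peak and -0.003 over all peaks, and at an unadjusted p below 0.05 1192 were higher and 574 lower.

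**Figure D1:**
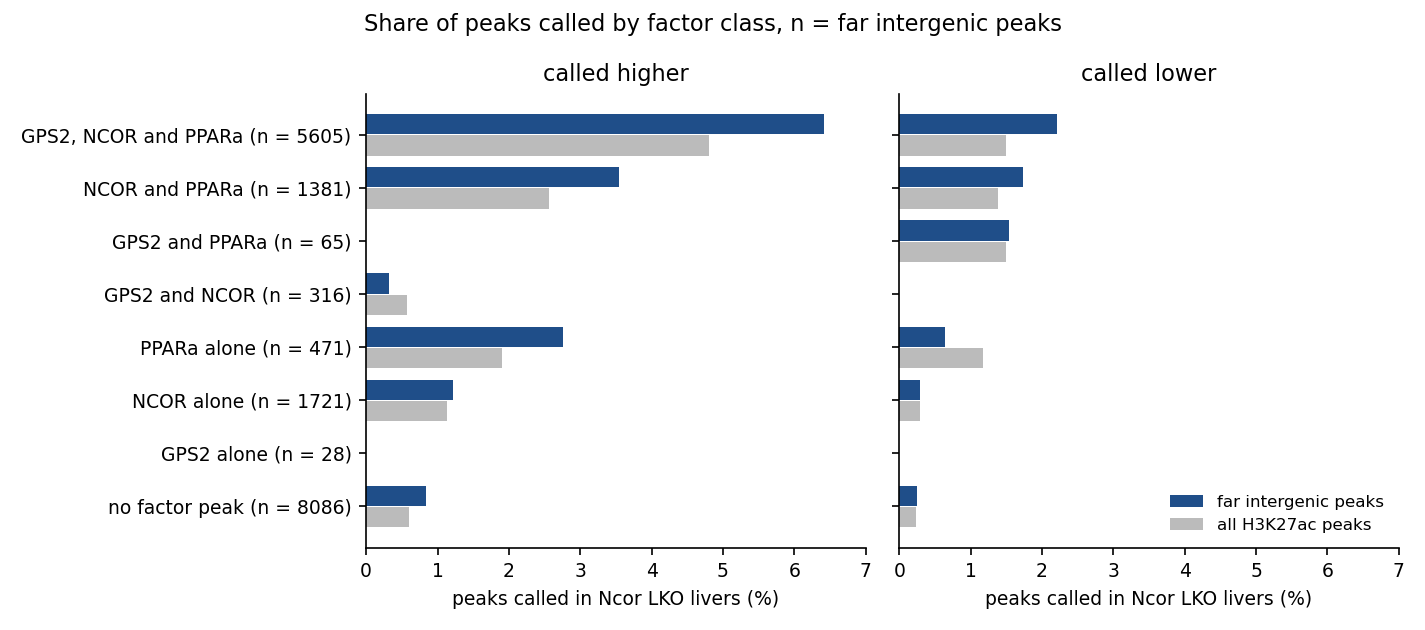
Share of peaks (%, horizontal axis) called higher (left) or lower (right) in Ncor LKO against Ncor WT livers, by the combination of GPS2, NCOR and PPARα peaks in WT livers. Dark bars are the far intergenic peaks and grey bars all H3K27ac peaks of the table; with all 3 factors the dark bars reach 6.42 and 2.21%, with no factor peak 0.841 and 0.247%.

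Summed over each class, the same difference was small. The far intergenic peaks together held 799640, 824384 and 808331 normalised tags in the Ncor WT libraries and 832074, 858521 and 836241 in the Ncor LKO libraries. No LKO library overlapped the WT range, at a ratio of means of 1.039. Regions with all 3 factors held 565726 ± 10200 in Ncor WT livers and 597421 ± 9980 in Ncor LKO livers (SD, n = 3 each), a ratio of 1.056 without overlap. Regions with no factor peak held 106476 ± 1400 and 105255 ± 4200 (SD, n = 3 each), and those groups overlapped. With 3 libraries against 3, an exact permutation test cannot pass 0.05, and none was run on these sums.

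Among called regions with a mean of at least 50 tags, the strongest rises lay near Tab2, Mtrr and 1700036G14Rik. Tab2 encodes an adaptor of the kinase TAK1 in inflammatory signalling. At chr10:7805145-7810703, 132 kb from Tab2, Ncor WT livers had 54.6, 47.2 and 43.8 normalised tags and Ncor LKO livers 466, 600 and 219. All 3 LKO libraries were several times above the WT libraries, and the log2 fold change was 3.14 ± 0.31 (SE, adjusted p = 0.0023). All 21 WT factor peak lists had a peak over this region. The Smrt libraries had 543, 405 and 66.3 in WT livers and reached 504, 539 and 664 in LKO livers, so that 2 of 3 Smrt WT libraries stood at the level of Ncor LKO livers and Smrt WT library 3 near that of Ncor WT livers. The next region, chr10:7815050-7816933, rose by 2.77 ± 0.50 (SE, adjusted p = 0.018), from 5.06 ± 1.84 to 35.2 ± 23.9 normalised tags (SD, n = 3 each), and was not called without any 1 of the Ncor WT libraries (adjusted p of 0.056 to 0.093). In all, 8 of the 11 far intergenic peaks nearest to Tab2 rose, where 2.32% of all peaks did.

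Mtrr encodes methionine synthase reductase, and the regions lie 270 and 275 kb from its TSS. At chr13:68450149-68451743 Ncor WT livers had 3.44, 2.64 and 2.91 and Ncor LKO livers 9.27, 32.0 and 33.4 normalised tags. LKO library 1 was much lower than the other LKO libraries but still above all WT libraries, and the log2 fold change was 3.05 ± 0.47 (SE, adjusted p = 0.0098). Without Ncor WT library 2 or 3 it was not called (adjusted p of 0.053 to 0.06). Fewer than 2 WT lists of any factor had a peak there. Of 13 far intergenic peaks nearest to Mtrr, 7 rose, where 2.32% of all peaks did. The region at chr3:85150547-85151181, named by the table for 1700036G14Rik and overlapping a GENCODE model of Arfip1, went from 2.91, 2.88 and 2.68 to 14.5, 23.7 and 23.6 (log2 fold change 2.85 ± 0.27, SE, adjusted p = 0.0020). H3K27ac was called as a peak in 1 of 12 libraries there and in 2 at each of these Mtrr regions. Such regions may be in the set only through libraries where they were high, so their rises are a description. Among all 512 rising regions 25 (4.88%) were called in 1 library, against 17.7% of far intergenic peaks.

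The strongest falls lay near Ccny, Gm8096, Pcdh20, 4930448F12Rik and Ppargc1a. At chr18:9501931-9509541, 55.6 kb from Ccny, which encodes a membrane-bound cyclin, Ncor WT livers had 367, 388 and 274 and Ncor LKO livers 67.4, 56.6 and 92.4 normalised tags. The groups were far apart, and the log2 fold change was -2.25 ± 0.19 (SE, adjusted p = 0.0015). Smrt livers of both genotypes had low levels there, 27.1, 21.8 and 25.4 in WT and 41.0, 24.8 and 21.3 in LKO. Near the protocadherin gene Pcdh20, the region chr14:88822181-88825039 went from 75.5, 53.7 and 113 to 17.4, 16.8 and 25.8 in the Ncor line (-2.01 ± 0.28, SE, adjusted p = 0.0063). Of 5 far intergenic peaks nearest to this gene 4 fell, where 0.801% of all peaks did. The Gm8096 region, chr8:29384338-29386057, went from 35.9 ± 7.66 to 8.92 ± 2.64 (SD, n = 3 each; adjusted p = 0.0044) and the 4930448F12Rik region, chr13:18213003-18215294, from 54.5 ± 9.99 to 13.8 ± 4.44 (SD, n = 3 each; adjusted p = 0.0042). Smrt livers of both genotypes had 2.33 to 7.92 at the Gm8096, 5.4 to 18.4 at the Pcdh20 and 1.02 to 2.28 at the 4930448F12Rik region. All 5 regions of the strongest falls had NCOR and PPARα peaks in WT livers, and 4 of them GPS2 as well. H3K27ac was called as a peak in 3 of 12 libraries at the Gm8096, Pcdh20 and 4930448F12Rik regions. It was called in 5 at the Ccny region and in 6 at the Ppargc1a region. Such regions may be in the set only through libraries where they were high, so their falls are a description.

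**Figure D2:**
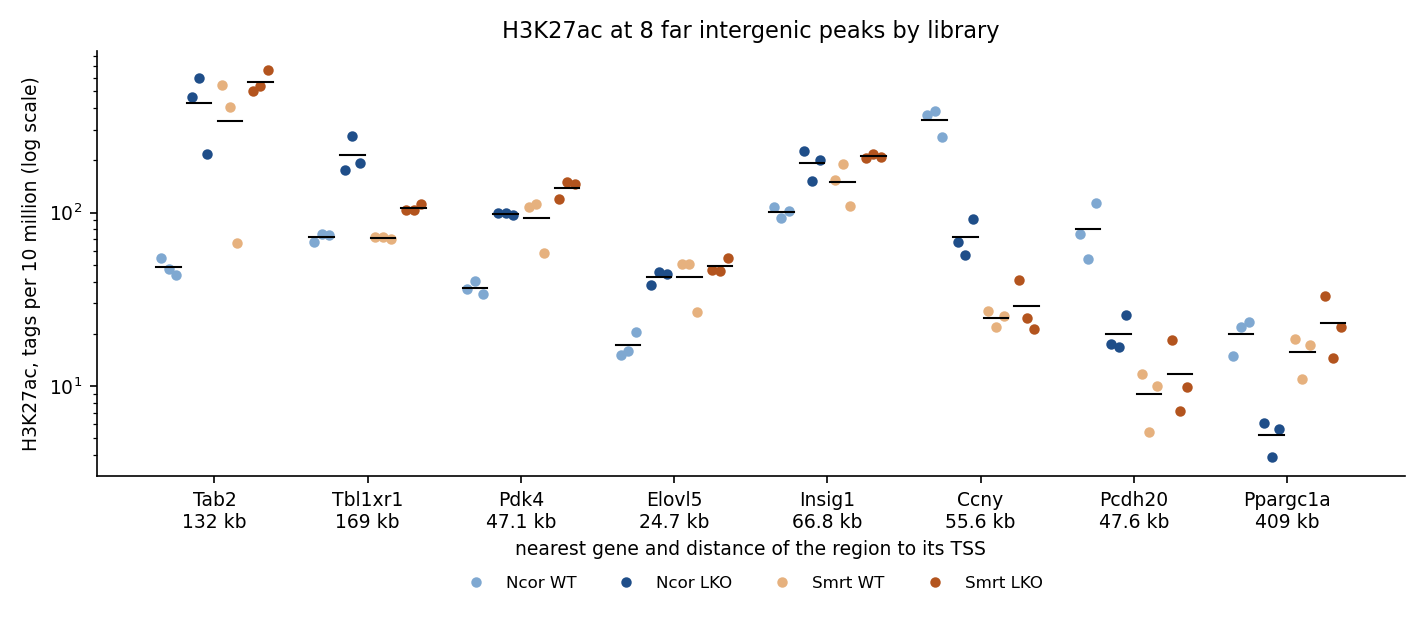
H3K27ac in normalised tags per 10000000 (log scale) at 8 far intergenic peaks, named by nearest gene and distance to its TSS, in the 12 libraries of the Ncor and Smrt lines. Each dot is a library and each line a mean of 3; the Ncor WT and Ncor LKO dots do not overlap at any of the 8 regions, while the Smrt WT and Smrt LKO dots overlap except near Tbl1xr1, Pdk4 and Insig1.

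Genes of PPARα action were read from a list of 50, of which 20 were the nearest gene of 62 far intergenic peaks. Of these peaks 7 rose and 2 fell in Ncor LKO livers (11.3 and 3.23%, against 2.32 and 0.801% of all peaks), and the median log2 fold change was 0.10. Pdk4 encodes a kinase that shuts down pyruvate dehydrogenase and spares glucose in fasting, and 3 of its 6 far intergenic peaks rose. At chr6:5397316-5401036 Ncor WT livers had 36.0, 40.5 and 33.8 and Ncor LKO livers 99.7, 99.1 and 96.7 normalised tags (log2 fold change 1.42 ± 0.14, SE, adjusted p = 0.0020). The LKO libraries agreed closely. The Smrt line had 107, 112 and 58.6 in WT livers, against 120, 151 and 147 after deletion, and its log2 fold change of 0.59 ± 0.22 did not pass (SE, adjusted p = 0.83). At chr6:5419444-5422525, the region of the Pdk4 window shown, Ncor livers went from 45.0, 49.4 and 49.2 to 114, 141 and 110 (1.35 ± 0.14, SE, adjusted p = 0.0028). The region chr6:5423417-5425066 rose by 1.29 ± 0.20 (SE, adjusted p = 0.0091).

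Of the other PPARα targets, Acsl1 (activation of long-chain fatty acids) had 2 rising regions and Cyp4a31 (a fatty acid hydroxylase) and Plin2 (a lipid droplet coat protein) had 1 each. Both falling regions were nearest to Ppargc1a, the coactivator PGC-1α, at distances of 409 and 514 kb. At chr5:51535694-51536645 Ncor WT livers had 14.8, 21.8 and 23.5 and Ncor LKO livers 6.11, 3.90 and 5.64 (-1.93 ± 0.25, SE, adjusted p = 0.0051), without overlap. At chr5:51430328-51432254 the Ncor log2 fold change was -1.56 ± 0.33 (SE, adjusted p = 0.035), and this call was lost without Ncor WT library 2 or 3 or any 1 Ncor LKO library (adjusted p of 0.058 to 0.092).

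Subunits of the complex and PPARα itself were the nearest gene of 41 far intergenic peaks, and 11 of these rose (26.8%, against 2.32% of all peaks) and 0 fell in Ncor LKO livers (at an unadjusted p below 0.05, 18 were higher and 2 lower). All 11 rising regions were nearest to Tbl1xr1, and 10 of its 21 far intergenic peaks were not called. At chr3:21803614-21809684, 169 kb from its TSS, Ncor WT livers had 67.8, 75 and 73.8 and Ncor LKO livers 176, 278 and 193 normalised tags (1.58 ± 0.17, SE, adjusted p = 0.0031). Smrt WT livers had 72.4, 71.9 and 70.3 and Smrt LKO livers 104, 103 and 112. The Smrt groups did not overlap either, but the log2 fold change of 0.57 ± 0.11 did not pass over all peaks (SE, adjusted p = 0.79). The Tbl1xr1 promoter peak rose as well in Ncor LKO livers, by 0.77 (adjusted p = 0.0068), and had 0.34 in Smrt LKO livers (adjusted p = 0.83).

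On the cholesterol and bile acid list 3 of 27 regions rose and 0 fell (11.1 and 0.0%, against 2.32 and 0.801% of all peaks), while 4 were higher and 6 lower at an unadjusted p below 0.05 and the median log2 fold change was -0.01. All 3 were nearest to Insig1 or Insig2, which hold the cholesterol sensor SCAP in the endoplasmic reticulum. At chr1:123244357-123248310 near Insig2 Ncor WT livers had 251, 201 and 196 and Ncor LKO livers 374, 337 and 364 (0.73 ± 0.12, SE, adjusted p = 0.012). At chr5:28329416-28332957 near Insig1 the levels went from 107, 93.0 and 102 to 228, 153 and 200 (0.95 ± 0.15, SE, adjusted p = 0.012). Without Ncor WT library 2 or 3 neither region was called (adjusted p of 0.056 to 0.075). Of 113 peaks on the transcription factor list 7 rose and 0 fell (6.19 and 0.0%; 23 and 6 at an unadjusted p below 0.05), nearest to Foxa2, Foxo1 and Nr2f2, by at most 0.95 on the log2 scale (Foxo1, chr3:52282623-52284502, adjusted p = 0.018). Without any 1 Ncor WT library or Ncor LKO library 3, or in 1 fit over both lines, this Foxo1 region was not called (adjusted p of 0.051 to 0.092). Nfil3, a repressor with a daily rhythm, had 2 rising regions of 11 on the circadian list (18.2%, against 2.32% of all peaks). Neither was called without any 1 Ncor WT library or Ncor LKO library 3 or with the replicate block (adjusted p of 0.062 to 0.15). On the lipogenic list 1 of 37 regions rose (2.7%, near the 2.32% of all peaks), nearest to the fatty acid elongase gene Elovl5. At the Elovl5 region, chr9:77739662-77741205, Ncor WT livers had 15.1, 15.8 and 20.4 and Ncor LKO livers 38, 45.6 and 44.0 normalised tags (1.31 ± 0.18, SE, adjusted p = 0.0061).

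Other lists showed no calls or calls in both directions. Regions nearest to acute phase genes (14), to genes of glucose production and glycolysis (30) and to female-biased liver genes (70) had 0 calls with edgeR. At an unadjusted p below 0.05, 1 and 1, 2 and 4, and 14 and 1 of them were higher and lower, where 9.46 and 6.07% of all peaks were. Of 83 regions nearest to male-biased genes 3 rose (Elovl3, Mup1 and Mup12) and 3 fell (C6, Ihh and Mup21), 3.61% each way against 2.32 and 0.801% of all peaks. Other Mup genes with rising regions, such as Mup13 (6) and Mup15 (7), were not on this list and are read further on. The C6 region, chr15:4624931-4631690, near a gene of terminal complement, had 344, 280 and 267 normalised tags in Ncor WT, 105, 188 and 186 in Ncor LKO, and 3.83 to 6.13 in all 6 Smrt libraries. Its Ncor call was lost without any 1 Ncor WT library or Ncor LKO library 3, with TMM scaling, scaled to tags in peaks and with the replicate block (adjusted p of 0.054 to 0.15).

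Some called regions shared a nearest gene. Of the 512 rising regions, 275 (53.7%) had another rising region within 50000 bp, and 42 genes were the nearest gene of at least 3. Of the 177 falling regions, 58 (32.8%) had another falling region within that distance, and 6 genes were the nearest gene of at least 3. All far intergenic peaks, which are many more, had 84.6%, and whether called regions lie closer together than others was not tested. After Tbl1xr1 (11) and Tab2 (8) came Mtrr and Mup15 (7), Gadd45g, Mup13 and Tet2 (6). Gadd45g encodes a stress-induced regulator of the cell cycle, and its 6 rising regions together held 184, 163 and 159 normalised tags in Ncor WT and 317, 660 and 457 in Ncor LKO livers. Tet2 encodes an enzyme that oxidises methylated cytosine, and its 6 regions held 302, 267 and 289 and 644, 678 and 532. The 4 regions of Akr1d1, the 5β-reductase of bile acid synthesis, held 97.5, 91.3 and 102 and 180, 428 and 363. At least 3 falling regions lay near Pcdh20 (4), 8430426J06Rik, Inhba, Postn, Sec61g and Sipa1l2. The 3 regions near Inhba, which encodes a chain of activin, held 280, 336 and 260 in Ncor WT and 131, 168 and 145 in Ncor LKO livers. Neighbouring regions share a locus and are not independent.

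The major urinary protein genes gave the largest group, chosen after its values were seen. They are a cluster of near-identical copies on chromosome 4 that encode pheromone carriers, so the assignment of tags between copies is uncertain. Of 64 far intergenic peaks nearest to 14 Mup genes, 32 rose and 1 fell in Ncor LKO livers, where 2.32 and 0.801% of all peaks did. The 64 had a median log2 fold change of 1.56. Together they held 1920, 1640 and 1700 normalised tags in Ncor WT and 2530, 2560 and 2720 in Ncor LKO livers, without overlap. Smrt WT livers held 2060, 1880 and 2290 and Smrt LKO livers 1680, 2130 and 1600, and the Smrt log2 fold change had a median of -0.24 and was negative at 51 of the 64.

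**Figure D3:**
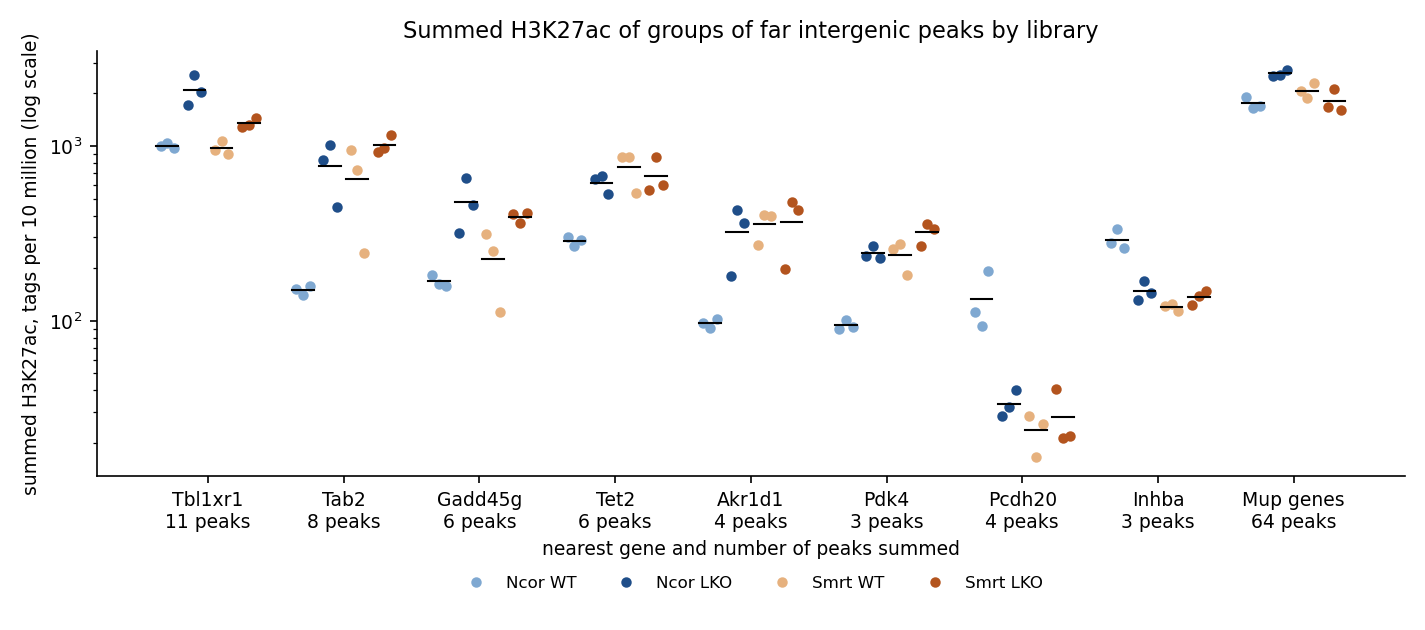
Summed H3K27ac in normalised tags per 10000000 (log scale) over the called far intergenic peaks nearest to 8 genes, and over all 64 far intergenic peaks nearest to Mup genes, in the 12 libraries. Dots are libraries and lines means of 3; the groups were called from the Ncor libraries, where LKO lies above WT except near Pcdh20 and Inhba, and the Smrt groups overlap except near Tbl1xr1 and Gadd45g.

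No far intergenic peak was called in Smrt LKO livers. The edgeR test gave 0 called higher and 0 called lower, as for all peaks of the table (0.0% either way), while 806 and 412 far intergenic peaks were higher and lower at an unadjusted p below 0.05 (4.56 and 2.33%, against 3.32 and 2.61% of all peaks). DESeq2 called 20 higher and 7 lower. The smallest unadjusted p-values among rises with enough tags fell near Ulk2, a kinase that starts autophagy, and Tmem154. At chr11:61678828-61681389, 11.5 kb from Ulk2, Smrt WT livers had 7.88, 10.6 and 11.1 and Smrt LKO livers 25.7, 36.2 and 31.4 normalised tags. The groups did not overlap, and the log2 fold change was 1.65 ± 0.22 (SE, adjusted p = 0.38). At chr3:84449124-84455533 near Tmem154 they had 146, 152 and 140 and 244, 236 and 296 (0.82 ± 0.11, SE, adjusted p = 0.38). This Tmem154 region overlapped a GENCODE model of Arfip1. Among decreases, the region near Pgrmc2, chr3:40904940-40906835, had 19, 22.6 and 26.3 in Smrt WT and 7.07, 9.70 and 11.2 in Smrt LKO (-1.27 ± 0.24, SE, adjusted p = 0.72), while in the Ncor line it rose from 29.4, 20.4 and 20.6 to 76.2, 38.1 and 53.8 (1.26 ± 0.26, SE, adjusted p = 0.029). The Ncor call there was lost without Ncor WT library 2 or 3 or Ncor LKO library 1 or 3 (adjusted p of 0.055 to 0.14). Near Tmx3 the Smrt log2 fold change was -1.06 and near 2010315B03Rik, on an unplaced contig, -0.55, and neither passed. By factor class, the Smrt medians were 0.01 with all 3 factors and 0.08 with none. The sum over all far intergenic peaks was 866294 ± 16600 in Smrt WT and 878995 ± 14400 normalised tags in Smrt LKO livers (SD, n = 3 each), and the groups overlapped.

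Over the 512 regions that rose in Ncor LKO livers, the Smrt log2 fold change had a median of 0.10 and was positive at 60.0%, and over the 177 that fell it had a median of 0.06 and was positive at 58.8%. All far intergenic peaks had a Smrt median of 0.03 and 55.1% positive. At an unadjusted p below 0.05, 55 of the rising regions (10.7%) were higher and 16 (3.12%) lower in Smrt LKO livers, and 20 of the falling regions (11.3%) were higher and 6 (3.39%) lower, where 4.56 and 2.33% of all far intergenic peaks were. With 1 Smrt library left out, the median over the rising regions lay between 0.0 (without Smrt WT library 3) and 0.18, and that over the falling regions between -0.07 (without Smrt LKO library 1) and 0.13. The log2 fold changes of the lines had a Spearman correlation of -0.02 over 17663 far intergenic peaks, which are not independent. The levels themselves differed between the lines: the 512 regions together held 28665, 28387 and 26540 normalised tags in Ncor WT and 54935, 55418 and 52039 in Ncor LKO livers, and 49993, 46566 and 37335 in Smrt WT and 45645, 52937 and 49848 in Smrt LKO livers. The 177 regions held 16219, 17262 and 17315 in Ncor WT and 8189, 9350 and 9488 in Ncor LKO livers, and 9021 to 10866 in the 6 Smrt libraries. In the falling set all 3 Smrt WT libraries lay nearer to the Ncor LKO than to the Ncor WT libraries. In the rising set Smrt WT libraries 1 and 2 did, and Smrt WT library 3 lay nearer to the Ncor WT libraries. Since the regions were called from the Ncor libraries, the Ncor values are a description, and line, sex and any other difference between the lines cannot be told apart in these levels.

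**Figure D4:**
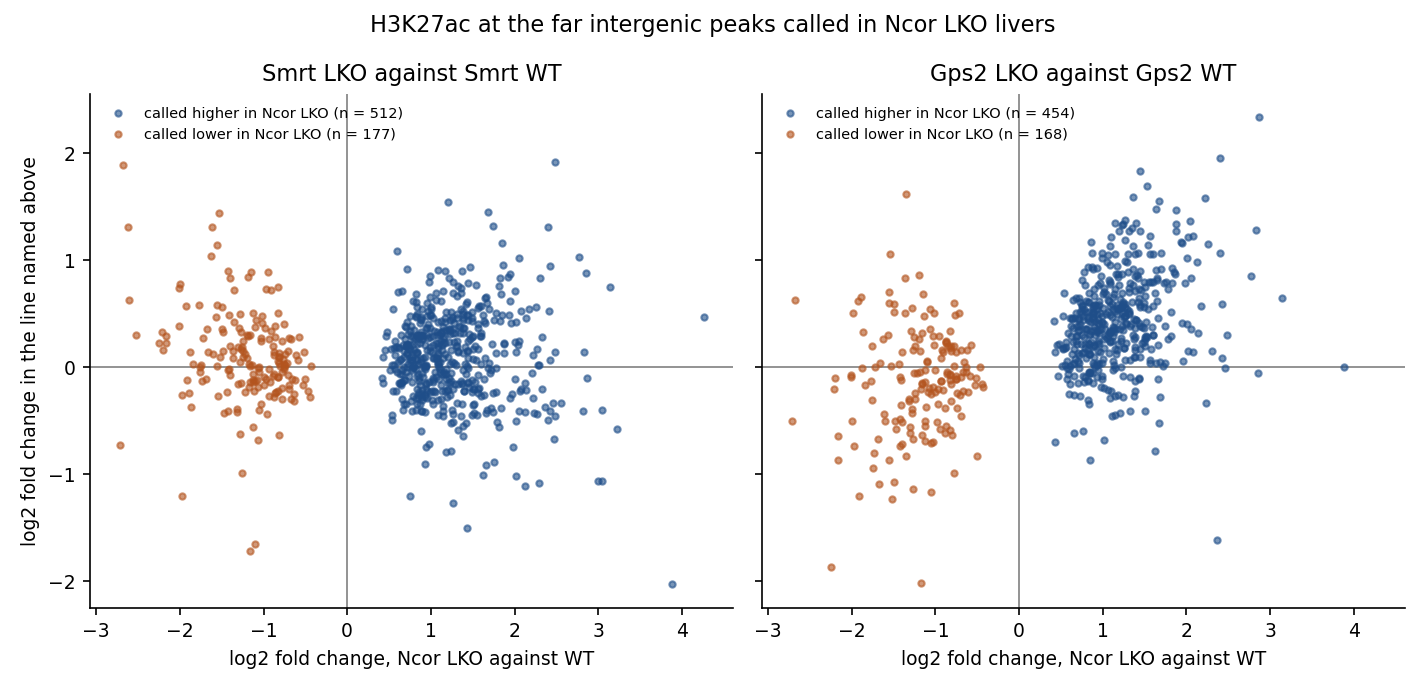
Log2 fold change of H3K27ac in Ncor LKO livers (horizontal) against that in Smrt LKO (left) or Gps2 LKO livers (right), at the far intergenic peaks called higher (dark blue) or lower (orange) in Ncor LKO. The Smrt values of the rising regions have a median of 0.10, and the Gps2 values of the rising regions lie mostly above 0 (median 0.40).

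The difference between the Ncor and Smrt effects was tested directly. It passed at 66 far intergenic peaks with a higher and 27 with a lower effect in the Ncor line (0.373 and 0.153% of them, where 0.33 and 0.0959% of all peaks of the table passed), so most regions called in the Ncor line were not shown to differ from the Smrt line. Without Ncor WT library 2 the counts were 5 and 5, and without Ncor WT library 3, Ncor LKO library 3, Smrt WT library 1, Smrt LKO library 1 or Smrt LKO library 3 the total lay between 23 and 47. The largest difference was at chr9:104263761-104264386, 24.0 kb from Acpp, which encodes an acid phosphatase. Ncor WT livers had 1.32, 0.959 and 0.224 and Ncor LKO livers 12.2, 12.9 and 11.7 normalised tags, while Smrt WT livers had 4.67, 3.44 and 4.57 and Smrt LKO livers 0.849, 1.53 and 0.576. The genotypes were separated in both lines in opposite directions, and the Ncor effect exceeded the Smrt effect by 5.90 ± 0.58 on the log2 scale (SE, adjusted p = 0.0015). The Ncor WT libraries held 5, 4 and 1 raw tags there. H3K27ac was called as a peak there in 1 of the 12 libraries, so the region may be in the set only through a library where it was high. Near Mup13 the difference was 3.44 ± 0.61 (SE, adjusted p = 0.028) and near Rbms3, which encodes an RNA-binding protein, -3.24 ± 0.55 (SE, adjusted p = 0.024). The Mup13 difference was lost without any 1 of 8 of the 12 libraries (Ncor WT 2 and 3, Ncor LKO 1 and 3, Smrt WT 1 and 2, Smrt LKO 1 and 3) and the Rbms3 difference without any 1 of 7 (the same except Smrt WT 2), and both with the replicate block (adjusted p of 0.051 to 0.089). The Rbms3 region, chr9:117622332-117623010, fell in Ncor LKO livers, from 9.42 ± 3.87 to 1.53 ± 0.176 normalised tags (SD, n = 3 each). At the Mup13 and Rbms3 regions H3K27ac was called as a peak in 3 of the 12 libraries each, so the limit named for Acpp holds there too.

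In the Gps2 line the far intergenic peaks were found again through overlap. Of the 17673, 14904 (84.3%) overlapped an intergenic peak of the Gps2 table, which made 14190 distinct peaks. Of these, 277 were higher and 44 lower in Gps2 LKO livers (1.95 and 0.31%), where 1.07 and 0.194% of all peaks of that table were called. With all 3 factors 3.95% were higher and 0.543% lower, and with no factor peak 0.337 and 0.0709%. With 2 libraries per group each library mattered: the counts were 49 and 7 when Gps2 WT library 1 was left out, 57 and 17 for Gps2 WT library 2, 704 and 373 for Gps2 LKO library 1 and 667 and 62 for Gps2 LKO library 2.

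The Gps2 and Ncor lines share no library. Of 454 matched regions that rose in Ncor LKO livers, 46 (10.1%) were also called higher in Gps2 LKO livers, which is 15.4% of the 299 matched regions higher there, and 2.01% of all matched regions were. Of 168 matched regions that fell, 9 (5.36%) were called lower, 19.1% of the 47 lower there, against 0.315% of all matched regions. The Gps2 log2 fold change was positive at 85.5% of the rising regions (median 0.40), at 36.9% of the falling ones (median -0.11) and at 63.5% of all matched regions (median 0.10). Over 14903 regions, which are not independent, the Spearman correlation of the Ncor and Gps2 log2 fold changes was 0.19. The Pdk4 region at chr6:5397316-5401036 matched a peak with 38.8 and 40.9 normalised tags in Gps2 WT and 85.4 and 82.2 in Gps2 LKO livers (1.07 ± 0.16, SE, adjusted p = 0.0073). The Insig2 region at chr1:123244357-123248310 rose by 0.61 ± 0.10 (SE, adjusted p = 0.016), a region near Nr2f2, chr7:77626234-77629542, rose by 0.89 ± 0.12 (SE, adjusted p = 0.0052), and the Ccny region fell, from 223 and 245 to 77.9 and 50.9 (-1.87 ± 0.17, SE, adjusted p = 0.00048). The matched part of the Tbl1xr1 region, 42.1% of its length, rose by 0.80 ± 0.17 (SE, adjusted p = 0.042). The Elovl5, Pcdh20 and Ppargc1a regions (the last at 409 kb) had 0.50, -0.07 and 0.62 and did not pass, nor did the stronger Tab2 region at 0.65. The largest changes of the Gps2 line were near C230079O03Rik (2.84), Gm38404 (2.39) and Gm27162 (2.10) upwards and Zkscan2 (-2.16), Selenbp2 (-2.11) and 1700065J18Rik (-1.92) downwards, and none of these 6 regions was called in the Ncor line.

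PPARα binding moved with H3K27ac at the regions called in the Ncor line. The PPARα table held 12244 peaks centred inside far intergenic peaks. Scaled to total tags, 21 of them were higher and 7 lower in Ncor LKO livers (0.172 and 0.0572%, against 0.151 and 0.0453% of all PPARα peaks), while TMM scaling gave 219 and 104. Of the 21, 14 lay in regions whose H3K27ac rose (781 peaks), and of the 7, 3 lay in regions whose H3K27ac fell (238 peaks). Inside rising regions the PPARα log2 fold change was positive at 91.9% of the peaks (median 0.53), inside falling regions at 14.3% (median -0.46) and inside the other far intergenic peaks at 58.4% (median 0.08). With TMM scaling the medians were 0.42, -0.56 and -0.03. The count of calls fell to between 0 and 8 when any 1 of Ncor WT libraries 1 and 2 or the 3 LKO libraries was left out, and was 52 higher and 129 lower without Ncor WT library 3, in which 8.96% of tags lay in peaks against 14.7 to 21.1% in the others.

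Shares of the PPARα tags in peaks do not depend on total depth. Regions whose H3K27ac rose took 1.35, 1.30 and 1.31% of them in Ncor WT and 1.66, 1.64 and 1.70% in Ncor LKO libraries, and regions whose H3K27ac fell took 0.408, 0.426 and 0.380% and 0.261, 0.305 and 0.285%. The groups did not overlap in either set. Inside the Tab2 region the PPARα peak with the most tags, chr10:7807086-7807289, lies in the window shown and had 126, 124 and 61.8 normalised tags in Ncor WT and 117, 109 and 154 in Ncor LKO livers, which overlapped (0.28 ± 0.40, SE, adjusted p = 1). A smaller peak of the same region, at chr10:7806590-7806744, had 6.17, 5.87 and 2.38 normalised tags in Ncor WT and 21.7, 34.7 and 17.6 in Ncor LKO livers (2.37 ± 0.55, SE, adjusted p = 0.021). Inside the Acpp region a peak at chr9:104264057-104264261 had 2.47, 1.6 and 0.951 and 8.56, 9.07 and 11.6 (2.53 ± 0.64, SE, adjusted p = 0.047). The PPARα peaks inside the Pdk4 regions did not pass: at chr6:5421061-5421255 the levels were 80.2, 71.5 and 40.9 and 77.6, 68.3 and 91.8 and overlapped (0.30 ± 0.44, SE, adjusted p = 1). At the Ppargc1a window, chr5:51536140-51536372, they were 11.7, 21.4 and 8.08 and 2.28, 3.73 and 7.30 (-1.62 ± 0.54, SE, adjusted p = 0.33).

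**Figure D5:**
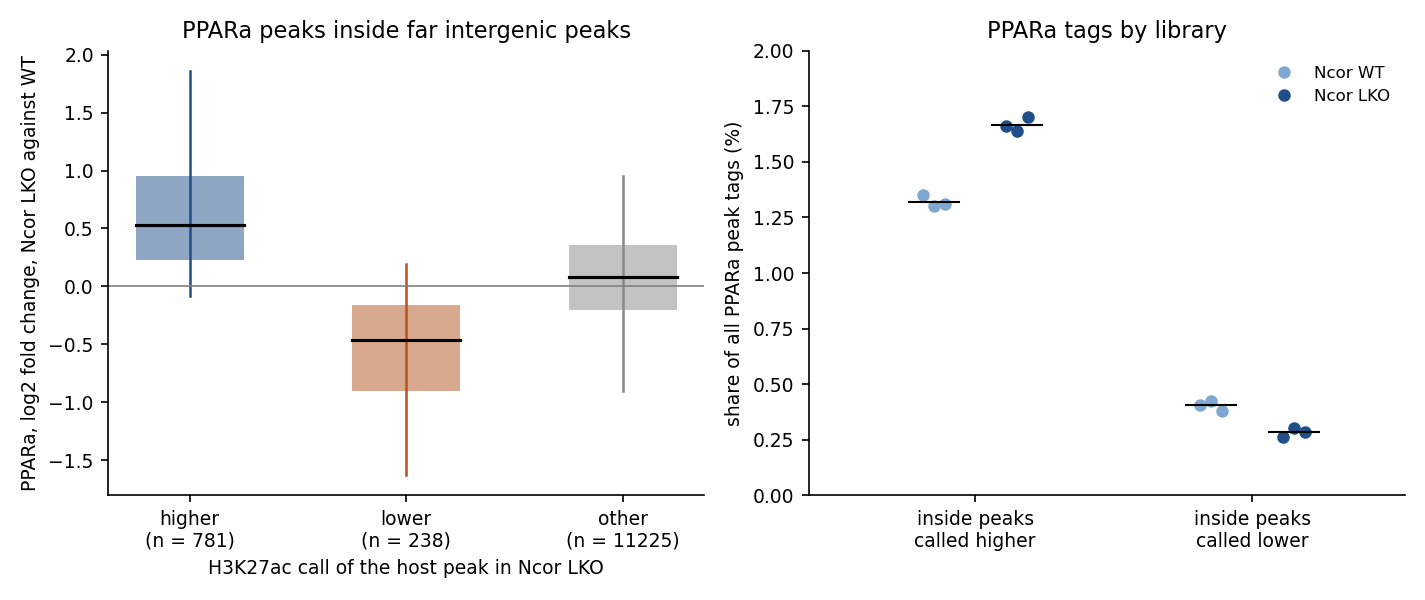
Left, log2 fold change of PPARα tags in Ncor LKO against Ncor WT livers at PPARα peaks inside far intergenic peaks, by the H3K27ac call of the host region; boxes span the quartiles, lines the 5th to 95th percentile and black bars the median (0.53, -0.46 and 0.08). Right, share of all PPARα peak tags (%) inside regions called higher or lower, per library, with black bars at the mean of 3; WT and LKO libraries do not overlap.

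How far GPS2 binding differed in Ncor LKO livers depended on the scaling. The study reports reduced average GPS2 binding in these livers at sites shared with NCOR. The share of GPS2 tags in peaks was 8.23, 7.82 and 3.07% in Ncor WT and 2.85, 3.15 and 2.45% in Ncor LKO libraries. Scaled to total tags, 0 of 8671 GPS2 peaks inside far intergenic peaks were higher and 5 lower (0.0 and 0.0577%, against 0.0 and 0.0338% of all GPS2 peaks), with a median of -1.27 against -1.12 over all GPS2 peaks. Scaled to tags in peaks or by TMM the medians were -0.11 and -0.16, against 0.03 and -0.02 over all GPS2 peaks. Those scalings place the middle of all peaks near 0, so they cannot show a shift common to all GPS2 peaks. Scaled to total tags, at an unadjusted p below 0.05, 6 of the 8671 were higher and 3686 lower. Of all 56278 GPS2 peaks 257 were higher and 19066 lower, so most of this count goes with the shift over all GPS2 peaks. Inside far intergenic peaks DESeq2 called 7 higher and 17 lower. Without Ncor WT library 3, 6 were called higher and 6071 lower, and with any 1 of the other libraries left out 0 were called. Inside rising, falling and other regions the medians by total tags were -1.27, -1.44 and -1.26. At the Tab2 window the GPS2 peak chr10:7807048-7807296 had 109, 97.3 and 47.2 normalised tags in Ncor WT and 21.7, 25.4 and 25.5 in Ncor LKO libraries (-1.80 ± 0.62, SE, adjusted p = 0.077).

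RNA was measured in the Gps2 line, with 12220 genes tested. Genes nearest to far intergenic peaks that were higher in Gps2 LKO livers were often higher in RNA, 58 of 125 tested (46.4%), and 12 (9.6%) were lower, where 23.4 and 21.4% of all genes were called higher and lower and 26.2 and 23.7% of the genes nearest to any far intergenic peak. Without Gps2 LKO library 2 these counts were 60 and 22. Of 22 tested genes nearest to regions that were lower, 2 were higher and 11 lower in RNA. For genes nearest to regions that rose in Ncor LKO livers the Gps2 line gave 54 higher and 51 lower of 212, and for those nearest to regions that fell 26 and 29 of 90. The nearest gene need not be the gene a region acts on. Marker sums moved in the same libraries: hepatocyte markers (9 of 9 genes) had 120000 to 124000 CPM (read counts scaled to the TMM library size) in Gps2 WT and 156000 to 183000 in Gps2 LKO livers, Kupffer cell and macrophage markers (9 of 10) 121 to 125 and 172 to 196, stellate cell markers (6 of 6) 154 to 163 and 286 to 300, and bile duct markers (5 of 5) 64.4 to 68.8 and 91.2 to 112. Endothelial markers (6 of 6) overlapped, and the part of these differences in the RNA calls was not tested.

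Named genes gave values in both directions. Elovl5 had 431, 425, 417 and 441 CPM in Gps2 WT and 800, 873, 749 and 823 in Gps2 LKO livers (log2 fold change 0.92 ± 0.06, SE, adjusted p = 4.5e-08). Pdk4 rose from 2.25 ± 0.611 to 5.11 ± 0.329 (SD, n = 4 each), Insig2 from 61.4 ± 1.73 to 71.1 ± 3.15 and Foxa2 from 18 ± 0.571 to 30.3 ± 3.29 (SD, n = 4 each; adjusted p = 0.00015, 0.014 and 1.9e-05). Tab2 fell by 0.34 on the log2 scale (adjusted p = 0.0079) and Ccny by 0.29 (adjusted p = 0.012), and Mtrr and Tbl1xr1 did not pass (-0.19 and -0.13). Ppargc1a rose from 9.97 ± 1.13 to 14.3 ± 1.56 (SD, n = 4 each; adjusted p = 0.0017). Selenbp2, a selenium-binding protein, fell from 647 ± 21.1 to 99.3 ± 9.24 (SD, n = 4 each; adjusted p = 3.9e-12), and its far intergenic peak fell from 166 and 132 to 59.8 and 10.5 normalised tags in the same line. Slc22a29, an organic anion transporter, had 0.092 ± 0.0819 and 1.56 ± 0.434 CPM (SD, n = 4 each; adjusted p = 1.8e-05), and its region at chr19:8325002-8329950 rose by 1.40 ± 0.13 (SE, adjusted p = 0.00048). This region overlapped a GENCODE model of Slc22a29 itself, so it is not shown to lie outside the gene. The matched peak of the Gps2 line covered 60.8% of it. Mup12 and Mup13 fell in RNA by 4.97 and 3.53 on the log2 scale in Gps2 LKO livers, with the uncertainty between gene copies named above.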

How the data were processed

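The deposited H3K27ac table held raw tag counts of 12 livers at mm9 peaks, which the authors made from mapped reads with HOMER. The mapper was Bowtie per the study's methods and Bowtie2 per the submitters' processing notes, without a version. The Gps2 RNA table held read counts per gene from the authors, and its fold changes and p-values, like 7 per-library columns that match no sample used here, were not used. For the RNA counts the sources differ: the study's methods name HOMER, and the submitters' processing notes also list featureCounts. Peak lists were called by the authors per library, and an overlap of 1 base counted.

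Each line was fitted alone with the edgeR quasi-likelihood test (edgeR 4.0.16, R 4.3.3), scaled to total tags, with Benjamini-Hochberg adjustment over every peak with at least 1 tag. The difference between lines was the line by genotype term of a fit over 12 libraries. RNA was fitted with TMM scaling and filterByExpr, and its values are CPM after TMM scaling. A call is an adjusted p below 0.05, and values are tags per 10000000 tags of the library (normalised tags). DESeq2 1.42.0 was an alternative. The edgeR step was tested on simulated data. Peaks of the Gps2 table were matched by the largest shared length and kept where annotated intergenic.

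Regions were named by a rule: the 5 largest rises and falls called in each line without overlap and with a mean of at least 50 tags (in the Smrt line the 3 with the smallest p in each direction, as not called), the 3 with the most WT tags, up to 5 called per gene list, the 3 largest differences between lines, and the most tagged region of each factor class. The largest changes of the Gps2 line, the genes with grouped calls, the Mup genes and 3 Pdk4 windows were added after values were seen. The members, lists and rules were chosen with earlier results of these data known. The 3 PPARα libraries of Gps2 WT livers differed by less than sampling noise.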

Additional observations from a re-analysis of the deposited data

Results flagged for a closer look

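The effects of the Ncor and Smrt deletions differed, by the line by genotype term in edgeR, at 66 far intergenic peaks upwards and 27 downwards. Among the named regions the Ncor effect exceeded the Smrt effect by 5.90 near Acpp, 3.44 near Mup13, 2.70 near Mup12, 2.53 near Pgrmc2 and 1.03 near Pdk4 (25.3 kb from its TSS), all on the log2 scale. It lay below the Smrt effect near Rbms3 (-3.24), Gm8096 (-2.75), Ppargc1a (-2.69 at 514 kb and -2.51 at 409 kb) and Ccny (-2.48). At Gm8096 Smrt WT livers had 2.33, 4.17 and 3.71 normalised tags, against 30.7, 32.4 and 44.7 in Ncor WT livers. At Ccny they had 27.1, 21.8 and 25.4, against 367, 388 and 274. A fall from such low Smrt levels is hard to see, so these differences do not compare falls from like levels. The Pdk4 difference (adjusted p = 0.049) was lost without any 1 of 11 libraries. TMM scaling, scaling to tags in peaks and the replicate block also lost it (adjusted p of 0.05 to 0.12 over all these settings). The Ppargc1a differences were lost without any 1 of 5 libraries (514 kb) or of 7 (409 kb). Sex-linked signal differs between the lines, so line and sex cannot be told apart in these differences.

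In the RNA of the Gps2 line, 1 library stood apart from the other 3 of its group for 3 of the named genes. For 2010315B03Rik the lowest WT library had 14.3 CPM and the next 16.3. Mup1 had 5.09 in the lowest WT library, with 7.07 in the next, and 0.153 in the highest LKO library, where the others had 0.0. For Suds3 the lowest WT library had 86.7 and the next 88.9. Chance alone marks about 1 in 20 such groups. Over all genes compared, Gps2 LKO library 2 stood apart as a whole. Against LKO libraries 1, 3 and 4 its chi-squared per gene was 29.6, 20.0 and 26.0, where sampling noise alone gives about 1. LKO library 3 had 9.97 and 9.3 against LKO libraries 1 and 4. LKO libraries 1 and 4 had 1.53, and the WT pairs 1.7 to 2.54.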

How the results depend on the processing

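Calls at the far intergenic peaks kept their prevailing direction in the Ncor line, but their number moved with the setting. Against 689 calls, DESeq2 gave 1075 and the replicate block 398, and the 7843 peaks beyond 50000 bp held 326. Leaving out 1 library gave 135 to 816. In the Smrt line 0 calls became 1 in 1 fit over both lines and 27 with DESeq2, and 0 to 1 with a library left out. The 93 differences between lines became 373 with DESeq2, 16 with the replicate block and 33 beyond 50000 bp, and 10 to 123 with a library left out. In the Gps2 line 321 calls became 190 with DESeq2 and 1125 with the replicate block, and 56 to 1077 with a library left out. The 5 calls of GPS2 binding became 81 with TMM scaling (30 higher and 51 lower), 77 scaled to tags in peaks (38 and 39), 360 with filterByExpr (0 and 360), 24 with DESeq2 (7 and 17) and 2067 with the replicate block (2 and 2065), and 0 to 6077 with a library left out. The 28 calls of PPARα binding became 323 with TMM scaling, 325 scaled to tags in peaks, 13 with filterByExpr, 110 with DESeq2 and 0 with the replicate block, and 0 to 181 with a library left out. The causes of these changes were not tested, except that fewer peaks lie beyond 50000 bp.

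Same-numbered H3K27ac libraries did not deviate together in the Ncor and Smrt lines (correlations of -0.2 to -0.08 in the Ncor and -0.21 to -0.01 in the Smrt line). In H3K27ac of the Gps2 line, with 2 pairs, the correlation was 0.2. For GPS2 and PPARα in the Ncor line the correlations were 0.06 to 0.14 and -0.07 to 0.1, and for RNA 0.05 to 0.2. Whether the numbers mark pairs in these other libraries was not settled. The other alternatives left each count within 1.5 times, the RNA calls stayed between 66 and 72, and the share of far intergenic peaks with a factor peak lay between 48.3 and 61.4%. It was 53.9% when the 3 PPARα libraries within sampling noise counted as 1, an alternative chosen after seeing the data. Of 39 named regions called in the Ncor line, 17 stayed called under every alternative run, and of 10 differences 2 did (Acpp, to which DESeq2 gave no adjusted p, and Ccny). The other 22 regions lost the call in at least 1 alternative: those near C6, Foxa2, Foxo1, Ihh, Insig1, Insig2, Mtrr, Mup1, Nfil3, Nr2f2 and Pgrmc2, that of Ppargc1a at 514 kb, the weaker Tab2 region and 4 near Tbl1xr1.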
